A study of Homo sapiens with 15 samples.

Results

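The 10 genes of antioxidant defence and of the NRF2 response studied here, of 57736 genes in the counts table, were followed through control and senescent human fibroblasts: SOD1, SOD2, HMOX1, NQO1, GCLC, GCLM, TXNRD1, SRXN1, SLC7A11 and NFE2L2. They were chosen by name, with earlier results of these data known, and their rows were found by Ensembl ID. All 10 were matched, and all 10 passed the filter on low counts in a test of 13516 genes. The cells were IMR90, fibroblasts from human fetal lung, and the 15 libraries form 5 groups of 3. Control cells had been infected with an empty retrovirus and given a non-targeting siRNA. The other 4 groups carried a retrovirus that expresses RAS, an oncogene that stops fibroblasts from dividing and makes them senescent. These were RAS cells with the non-targeting siRNA (siControl RAS), RAS cells with an siRNA against METTL14 and a vector (knockdown), and RAS cells with that siRNA and lentiviral METTL14, either wild type (wild-type add-back) or with the R298P substitution (R298P add-back). METTL14 binds the enzyme METTL3, and together they write N6-methyladenosine on RNA, and R298P is known to impair this activity. The siRNA was first given on day 4 after the retrovirus and again on the next day together with the lentivirus, and RNA was taken 48 hours later. The genotype labels read knockout and knock-in, but the protocols describe siRNA and lentivirus and are followed here; they do not tell whether a lentivirus was also given to control and siControl RAS cells.

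NRF2, the product of NFE2L2, is a transcription factor that is held in the cytoplasm and sent for degradation by KEAP1. Oxidants and electrophiles modify KEAP1, NRF2 then accumulates, pairs with a small MAF protein and binds antioxidant response elements (AREs) near its targets, where BACH1 can occupy the same elements and repress them. Because most of this control acts on the protein, the NFE2L2 transcript is only an indirect view of NRF2 activity. The targets followed here make glutathione (GCLC and GCLM, the subunits of glutamate-cysteine ligase, and SLC7A11, which imports the cystine it needs), keep thioredoxin and peroxiredoxins reduced (TXNRD1 and SRXN1), reduce quinones (NQO1) and break down heme (HMOX1). SOD1 in the cytosol and SOD2 in mitochondria turn superoxide into hydrogen peroxide, and SOD2 is also a classical NF-kB target in inflamed cells.

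The ARE is the sequence these targets are known to share, so the RefSeq promoter windows of the members (GRCh38.p14, from 250 bases before to 50 after a transcription start) were searched on both strands for its core, TGACNNNGC. Windows were found for 7 of the 10 members, 12 windows in all; SOD1, HMOX1 and SLC7A11 had none in the table. The core was present in 3 of the 12 windows, which belong to GCLM and TXNRD1, and in 13.3% of all 35116 windows. The stretches of 30 bases around the 4 matches are given 5′ to 3′ on the strand of the gene, with the match in capitals; 3 of them carry the core on the other strand.
GCLM, chr1:93909445-93909474, minus strand, match from 34 bases before the start: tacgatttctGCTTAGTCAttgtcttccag
TXNRD1, chr12:104215670-104215699, plus strand, match from 99 bases before the start: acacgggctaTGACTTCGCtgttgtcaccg
TXNRD1, chr12:104215761-104215790, plus strand, match from 8 bases before the same start: gcgtccttcgGCTCCGTCAgttcccacagg
TXNRD1, chr12:104286920-104286949, plus strand, match from 102 bases before a second start: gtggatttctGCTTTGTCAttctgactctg
None of the 12 windows held the AP-1 site TGANTCA (which some ARE cores also contain) or the NF-kB consensus; 7.71% and 11.3% of all windows did. A match describes letters in this window, and elements farther from the start were not searched.

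Libraries held 4917661 to 7763084 counts, so that 1 count stood for 0.129 to 0.203 CPM, counts scaled to a common library size. METTL14 itself, which checks the labels, stood at 19.1, 21.2 and 23.3 CPM in control libraries, 26.2, 19.3 and 20.5 CPM in siControl RAS, 9.35, 4.94 and 3.94 CPM in knockdown, 508, 564 and 564 CPM in wild-type and 892, 907 and 1038 CPM in R298P libraries. The 12 fibroblast markers were present in every group, with a summed level of 11693 to 11825 CPM in control and 19538 to 24751 CPM in RAS libraries. Summed epithelial markers (12 genes, of which CDH1, KRT5, KRT14, ESRP1 and GRHL2 were at 0 throughout) ran from 138 to 151 CPM in control and 52.6 to 95.9 CPM in RAS libraries. Endothelial markers (7 genes, with CDH5, ERG and EMCN at 0) ran from 15.2 to 24.95 and 35.3 to 47.1 CPM. Leukocyte markers (9 genes, mostly CD68; no library had over 2 counts of PTPRC) ran from 2.96 to 8.28 and 6.02 to 23.7 CPM. The part of these markers in the results was not tested. Replicate 1 of the knockdown group stood apart from the other libraries on the third principal component (54.4 against -25.6 to 9.88), and results that rest on it are given without it. Separate cultures are not named for the libraries of a group, so the spread behind the p-values may be technical. In bulk RNA, fewer cells with a transcript and less transcript per cell cannot be told apart.

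RAS-induced senescence split the genes into 3 that rose, 6 that fell and 1 that was not called. SOD2, GCLC and NFE2L2 rose, whereas NQO1, SRXN1, GCLM, HMOX1, SLC7A11 and TXNRD1 fell. The test was edgeR's quasi-likelihood F test, two-sided, and a gene counted as called when its p, adjusted over all genes by Benjamini-Hochberg, was under 0.05. In this comparison 45.9% of all tested genes were called, 24% higher and 21.9% lower, against 9 of 10 members. The members were chosen with earlier results of these data known, so their count is a description and not a test of the set. The libraries of the groups did not overlap in the 9 called members and in 54.2% of all genes. The median log2 change of the members was -0.91 and that of all genes 0.00. The plot of levels by library shows each gene in all 5 groups.

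**Figure D1:**
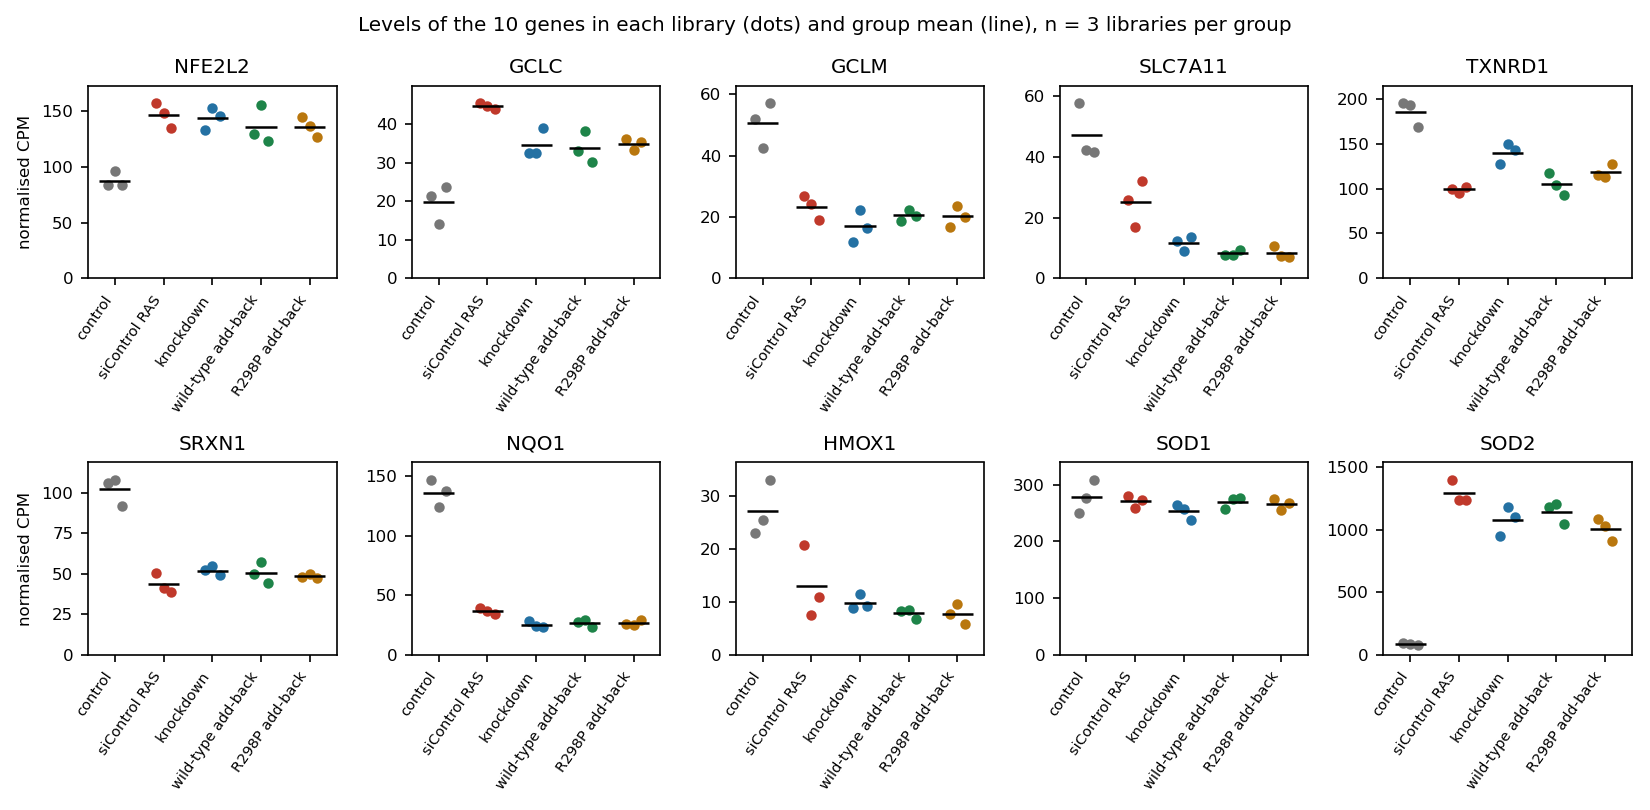
Normalised CPM (vertical axes, starting at 0, with a scale of their own in each panel) of the 10 genes in the 5 groups (horizontal axes); dots are libraries and lines are means of 3. Control libraries lie apart from all RAS libraries in 9 of the panels, and overlap with them for SOD1.

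NFE2L2, which encodes NRF2, had 83.8, 96.02 and 83.3 CPM in the control and 157, 148 and 135 CPM in the siControl RAS libraries. Every RAS library lay above every control library, and the transcript was 1.67-fold higher (log2 change 0.74, SE 0.0995, adjusted p = 1.24e-07). The direction of NFE2L2 was therefore opposite to that of 6 of the 7 targets known to respond to NRF2 in this list, all but GCLC.

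Of the genes that supply glutathione, GCLC rose and GCLM and SLC7A11 fell. GCLC, the catalytic subunit of glutamate-cysteine ligase, went from 21.4, 14.2 and 23.8 to 45.4, 44.8 and 44.03 CPM (log2 change 1.18, SE 0.172, adjusted p = 6.00e-07). GCLM, the subunit that modifies its activity, went from 52.04, 42.7 and 57.1 to 26.97, 24.4 and 18.9 CPM (log2 change -1.11, SE 0.198, adjusted p = 1.71e-05). The 2 subunits of 1 enzyme thus moved in opposite directions, each without overlap of its libraries. SLC7A11, the light chain of the cystine and glutamate exchanger, had 57.7, 42.2 and 41.6 CPM in the control libraries and 25.7, 17.05 and 32.3 CPM in the siControl RAS libraries (log2 change -0.91, SE 0.221, adjusted p = 8.55e-04). Its RAS libraries spread widely, and all 3 lay below the lowest control library.

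Both genes of the thioredoxin branch fell. TXNRD1, the cytosolic thioredoxin reductase, went from 195, 194 and 169 to 99.7, 95.4 and 102 CPM (log2 change -0.91, SE 0.0960, adjusted p = 8.57e-10). SRXN1, sulfiredoxin, which restores overoxidised peroxiredoxins, went from 106, 108 and 91.99 to 50.1, 41.4 and 38.5 CPM (log2 change -1.23, SE 0.126, adjusted p = 4.49e-10). The highest RAS library lay far below the lowest control library for both.

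NQO1 and HMOX1, the classical induced NRF2 targets, fell too. NQO1 had 147, 125 and 138 CPM in the control libraries and 39.5, 36.7 and 34.8 CPM in the siControl RAS libraries, the steepest fall among the members at 3.68-fold (log2 change -1.88, SE 0.131, adjusted p = 3.05e-14). HMOX1, heme oxygenase 1, had 22.97, 25.5 and 33.1 CPM in the control libraries and 20.8, 7.49 and 10.9 CPM in the siControl RAS libraries (log2 change -1.04, SE 0.282, adjusted p = 0.00271). Replicate 1 of siControl RAS lay close to the control libraries and the other two well below. Without that library the change was -1.56, and without replicate 2 it was -0.77; HMOX1 was called in all 6 fits that left out 1 of the libraries compared.

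The superoxide dismutases differed. SOD2, the mitochondrial enzyme, rose from 91.6, 88.1 and 78.8 CPM in control to 1397, 1239 and 1238 CPM in siControl RAS libraries, 14.98-fold (log2 change 3.90, SE 0.0918, adjusted p = 2.89e-22). SOD1, the cytosolic enzyme, had 250.4, 277 and 308 CPM in the control libraries and 279, 259 and 274 CPM in the siControl RAS libraries, and the groups overlapped (log2 change -0.04, SE 0.0765, adjusted p = 0.696, with a 95% interval of -0.20 to 0.11). In GENCODE 29 the SOD2 gene overlaps WTAP on the opposite strand. WTAP had 826 to 2060 counts in a library against 474 to 10259 for SOD2, and since no source used here tells whether counting used the strand, tags of the pair cannot be told apart. TXNRD1 likewise holds the pseudogene RPL18AP3 on its own strand, with 74 to 335 counts in a library against 496 to 1247 for TXNRD1, and AGPS overlaps NFE2L2 on the opposite strand, with 105 to 219 counts against 501 to 1151. When libraries were scaled by their total alone, the median log2 change of all genes moved to -0.15 and the calls to 2648 higher and 3871 lower. SOD1 was then called lower, by 0.19 (adjusted p = 0.0400), close to that shift, and the other 9 members kept their direction and their call.

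Knockdown cells were next compared with siControl RAS cells. These groups differ in the siRNA and perhaps also in the lentivirus, and the effects of the siRNA and the lentivirus cannot be told apart here. TXNRD1 rose, and SLC7A11, NQO1 and SOD2 fell; the other 6 members were not called. Here 15.5% of all tested genes were called, 7.47% higher and 8.06% lower, against 4 of 10 members (3 without knockdown replicate 1). The libraries did not overlap for 5 members and for 30% of all genes. The median log2 change of the members was -0.31, and -0.14 without replicate 1 of siControl RAS, against 0.00 for all genes. Scaled by library totals alone, 1442 genes were higher and 812 lower, in place of 1010 and 1090.

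TXNRD1 went from 99.7, 95.4 and 102 CPM in siControl RAS to 127, 149.9 and 143 CPM in knockdown libraries (log2 change 0.50, SE 0.0965, adjusted p = 2.27e-04). All knockdown libraries lay above the siControl RAS libraries and below the control libraries, and knockdown cells remained lower than control (log2 change -0.41, SE 0.0945, adjusted p = 7.62e-04). SRXN1, the other thioredoxin gene, had 52.02, 54.5 and 48.9 CPM in knockdown libraries, which overlap siControl RAS libraries, and was not called (log2 change 0.25, SE 0.129, adjusted p = 0.210, interval -0.01 to 0.52).

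SLC7A11 went from 25.7, 17.05 and 32.3 to 12.4, 8.95 and 13.6 CPM (log2 change -1.11, SE 0.237, adjusted p = 8.22e-04). The knockdown libraries lay below all RAS libraries with the control siRNA, which already lay below control, so that knockdown cells had 4.05-fold less SLC7A11 than control cells. NQO1 showed the same order of groups, with 28.4, 23.9 and 23.1 CPM in knockdown libraries (log2 change -0.56, SE 0.140, adjusted p = 0.00398), 5.43-fold below control. TXNRD1 in knockdown cells therefore lay nearer to control than in siControl RAS cells, and SLC7A11 and NQO1 lay farther from it.

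SOD2 had 953, 1184 and 1103 CPM in knockdown libraries, below the siControl RAS libraries but with little distance (log2 change -0.26, SE 0.0795, adjusted p = 0.0265). The SOD2 call was lost without siControl RAS replicate 1 (adjusted p = 0.152), without knockdown replicate 1 (adjusted p = 0.146), without knockdown replicate 3 (adjusted p = 0.0620) and with scaling by library totals alone (adjusted p = 0.141). Against control, SOD2 remained 12.5-fold higher in knockdown cells.

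GCLC had 32.5, 32.4 and 38.9 CPM in knockdown libraries, all below the siControl RAS libraries, and missed the call (log2 change -0.37, SE 0.166, adjusted p = 0.141, interval -0.71 to -0.03). GCLM had 11.99, 22.2 and 16.6 CPM and overlapped siControl RAS (log2 change -0.46, SE 0.207, adjusted p = 0.143); without knockdown replicate 2 it was called, with a log2 change of -0.71 (adjusted p = 0.0327). HMOX1 had 8.94, 11.6 and 9.19 CPM (log2 change -0.41, SE 0.295, adjusted p = 0.407, interval -1.01 to 0.19), and its log2 change was 0.11 without siControl RAS replicate 1. NFE2L2 had 133, 153 and 146 CPM, a log2 difference of -0.03 with an interval of -0.23 to 0.17. SOD1 had 264, 257 and 237 CPM, a log2 difference of -0.10 with an interval of -0.26 to 0.06. Both groups overlapped for these last 3 genes. Differences inside the intervals remain possible with 3 libraries a group, and the intervals do not give the smallest change the test could call.

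Set directly against control, knockdown cells had the same 3 genes higher and the same 6 lower as siControl RAS cells, where 36% of all tested genes were called. These comparisons share the control libraries, and the values stand side by side as a description. The log2 differences from control were 0.74 in siControl RAS and 0.71 in knockdown cells for NFE2L2, 1.18 and 0.81 for GCLC, and 3.90 and 3.65 for SOD2. For the genes below control they were -0.91 and -0.41 for TXNRD1 and -1.23 and -0.98 for SRXN1. They were -1.11 and -1.57 for GCLM, -1.04 and -1.45 for HMOX1, -1.88 and -2.44 for NQO1, and -0.91 and -2.02 for SLC7A11.

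**Figure D2:**
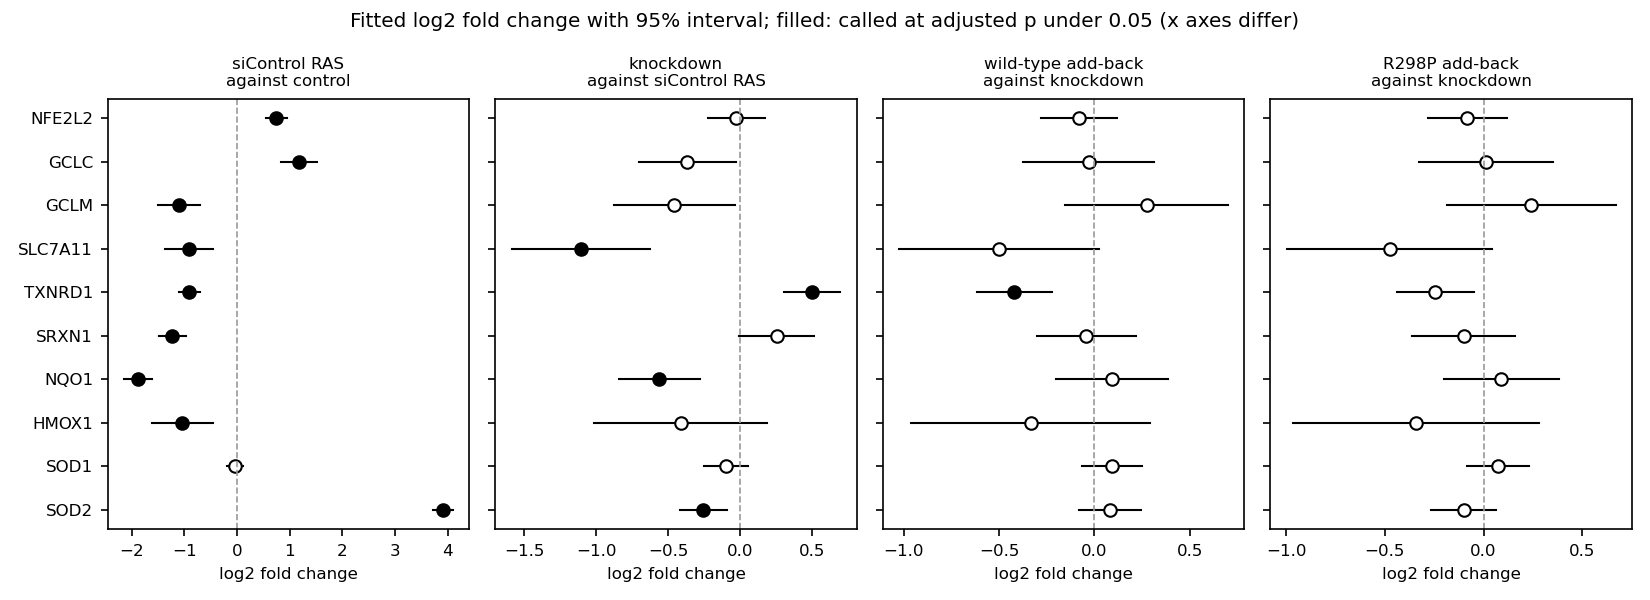
Fitted log2 fold change (horizontal axes, which differ between panels) with 95% interval for the 10 genes (vertical axis) in 4 comparisons; filled points were called and open points were not. The number of called genes is 9 for RAS, 4 for knockdown against siControl RAS, 1 for the wild-type and 0 for the R298P add-back.

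Add-back of METTL14 to knockdown cells asks whether the knockdown's changes return, and whether R298P differs from wild type. With wild-type METTL14, TXNRD1 fell and no other member was called, where 0.621% of all tested genes were called (44 higher and 40 lower, or 33 and 45 with scaling by library totals alone). TXNRD1 had 117, 104 and 93.2 CPM in wild-type add-back libraries, all below the knockdown libraries (log2 change -0.42, SE 0.0966, adjusted p = 0.0234). Its log2 difference from siControl RAS cells was 0.08 with an interval of -0.12 to 0.28. The TXNRD1 call was lost in 4 of the 6 fits that left out 1 of the libraries compared: without knockdown replicate 2 (adjusted p = 0.173) or 3 (0.108), or wild-type add-back replicate 2 (0.112) or 3 (0.257). Its log2 change in those 6 fits ran from -0.51 to -0.35.

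With R298P METTL14, 0 of 10 members were called by edgeR against knockdown, 1 at an unadjusted p under 0.05, and 0 by DESeq2 and by limma-voom, where 1.09% of all tested genes were called. That member was TXNRD1, with 115, 113 and 127 CPM in R298P libraries, the highest of them just under the lowest knockdown library (log2 change -0.24, SE 0.0960, adjusted p = 0.352). Between the add-backs, TXNRD1 differed by -0.18 (wild type minus R298P, log2) with an interval of -0.37 to 0.02 and an adjusted p of 1.000, so that a difference between the proteins was not shown. In that direct comparison 0 of 10 members were called by edgeR, DESeq2 or limma-voom, 1 at an unadjusted p under 0.05 (SOD2, wild type higher by 0.18), and 0.0222% of all tested genes were called.

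SLC7A11 was not higher with either add-back than in knockdown. It had 7.68, 7.78 and 9.21 CPM in wild-type and 10.7, 7.33 and 6.89 CPM in R298P libraries, against 12.4, 8.95 and 13.6 CPM in knockdown. Neither add-back was called against knockdown (log2 -0.50, interval -1.02 to 0.02, adjusted p = 0.695 for wild type; -0.48, interval -0.998 to 0.04, adjusted p = 0.638 for R298P). NQO1 had 27.3, 29.5 and 23.3 CPM in wild-type and 25.8, 25.2 and 29.2 CPM in R298P libraries, with intervals against knockdown of -0.20 to 0.38 and -0.20 to 0.38.

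Against siControl RAS cells, wild-type add-back cells had SLC7A11 and NQO1 lower and R298P cells had SLC7A11, NQO1 and SOD2 lower. Of all tested genes 13% and 13.4% were called in these comparisons (854 higher and 901 lower for wild type, 848 and 965 for R298P; with scaling by library totals alone, 1134 and 760, and 1234 and 708). SLC7A11 was lower by 1.61 (adjusted p = 9.07e-06) and 1.58 (adjusted p = 1.20e-05) on the log2 scale. NQO1 was lower by 0.47 (adjusted p = 0.0192) and 0.47 (adjusted p = 0.0186). SOD2 had 1180.4, 1203 and 1043 CPM in wild-type and 1082, 1028 and 911 CPM in R298P libraries, and differed from siControl RAS by -0.18 (adjusted p = 0.162) and -0.36 (adjusted p = 0.00256). The NQO1 call was lost for wild type without siControl RAS replicate 1 (adjusted p = 0.0898) or wild-type replicate 3 (0.126). For R298P it was lost without siControl RAS replicate 1 (0.0874) or R298P replicate 1 (0.0714) or 2 (0.0825). Neither call held when only the 6 libraries compared were fitted (adjusted p = 0.0708 and 0.0558).

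For the remaining members no difference between the add-backs was called. In wild-type and R298P cells the means were 33.9 ± 4.004 and 34.9 ± 1.55 CPM (SD, n = 3) for GCLC, 20.6 ± 1.83 and 20.2 ± 3.41 for GCLM, and 50.2 ± 6.63 and 48.3 ± 1.13 for SRXN1. They were 7.86 ± 0.957 and 7.79 ± 1.92 CPM for HMOX1, 136 ± 17.03 and 136 ± 9.21 for NFE2L2, and 269.6 ± 11.2 and 266 ± 9.38 for SOD1. None of these was called against knockdown or siControl RAS cells. HMOX1 was lower than in siControl RAS by 0.75 and 0.76 on the log2 scale (adjusted p = 0.104 and 0.0982). Both HMOX1 differences were called without siControl RAS replicate 2 (-1.02 and -1.03), and both shrank without siControl RAS replicate 1 (-0.22 and -0.23).

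Ordered by group mean, TXNRD1 ran from control (186 ± 14.5 CPM) through knockdown (140.1 ± 11.5), R298P (118 ± 7.57) and wild-type add-back (105 ± 11.9) to siControl RAS (99.1 ± 3.51); the test told control from knockdown, and knockdown from wild type and siControl RAS, while R298P was told apart from none of the other RAS groups. SLC7A11 ran from control (47.1 ± 9.12 CPM) through siControl RAS (25.02 ± 7.63) and knockdown (11.7 ± 2.42) to R298P (8.29 ± 2.06) and wild type (8.22 ± 0.854), with the last 3 not told apart. NQO1 ran from control (136 ± 11.3) through siControl RAS (36.99 ± 2.38) to a trio of R298P (26.7 ± 2.16), wild type (26.7 ± 3.13) and knockdown (25.2 ± 2.86) that was not told apart. SOD2 ran from siControl RAS (1291 ± 91.9) through wild type (1142 ± 86.7), knockdown (1079.9 ± 118) and R298P (1007 ± 87.4) to control (86.2 ± 6.58). For SOD2, siControl RAS differed from knockdown and from R298P, and no other pair of RAS groups was told apart. For GCLM, SRXN1, HMOX1, GCLC and NFE2L2 the only step that passed the test was the one between control and the RAS groups compared with it.

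Around these members, 8 lists with 100 genes of the same pathways gave 88 tested genes. For siControl RAS against control 28 of them rose and 23 fell, where 24% of all tested genes rose and 21.9% fell. For the knockdown against siControl RAS 12 rose and 15 fell, where 7.47% of all tested genes rose and 8.06% fell. These shares of all genes stand beside the counts of each list below, and no list was tested as a set. The lists and their genes are shown in the plot of pathway genes.

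**Figure D3:**
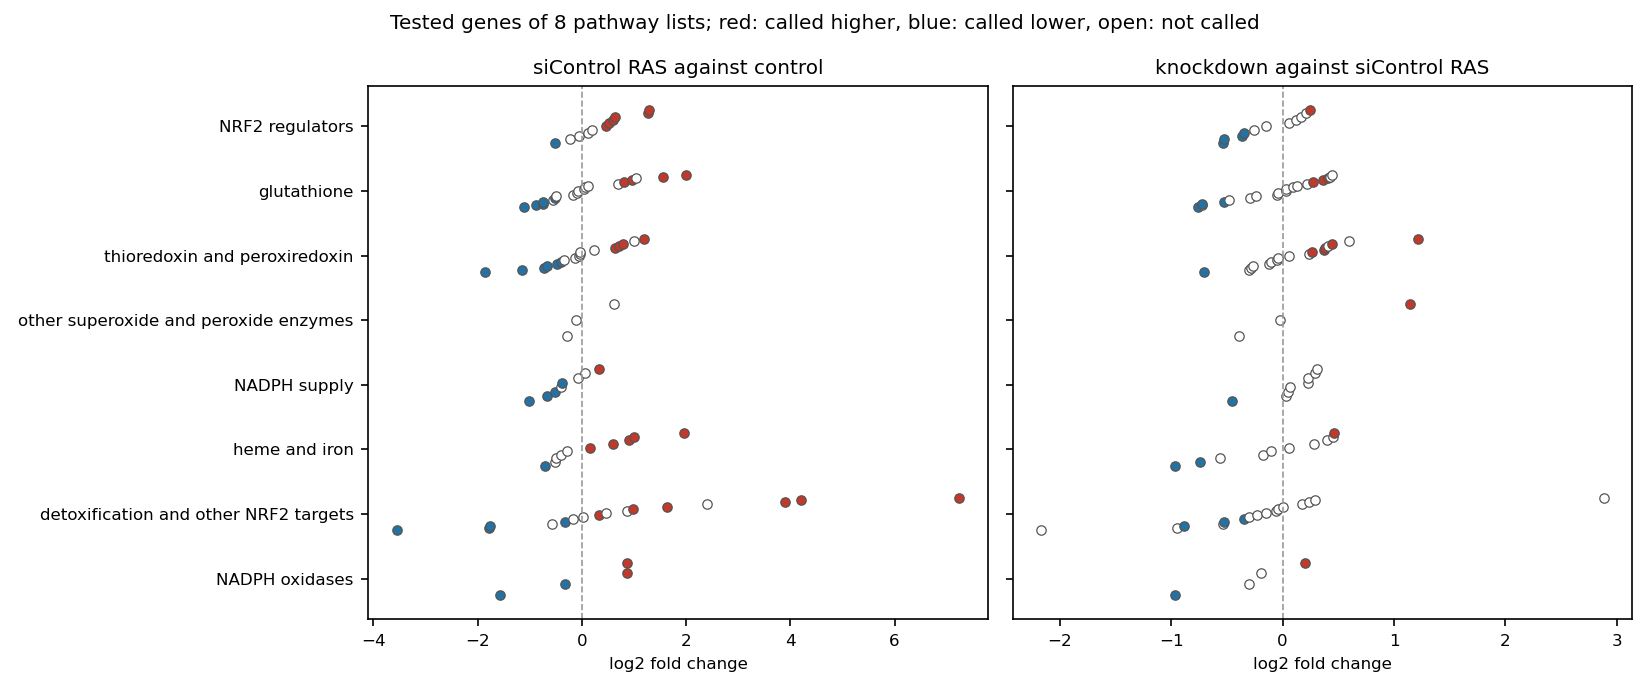
Log2 fold change (horizontal axes) of the tested genes of 8 pathway lists (vertical axis) for siControl RAS against control and for knockdown against siControl RAS; red points were called higher, blue points lower, and open points were not called. Most lists hold called genes in both directions in both comparisons.

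Among 11 regulators of NRF2, 6 rose and 1 fell with RAS (median log2 change 0.46). BACH1, the repressor that competes with NRF2, rose from 38.1 ± 0.794 to 93.2 ± 6.84 CPM (log2 1.29). The small MAF protein MAFF rose by 1.26 and the NRF2 relative NFE2L1 by 0.64. KEAP1, which sends NRF2 for degradation, moved the other way with RAS, its mean going from 52.02 ± 2.21 to 36.3 ± 5.71 CPM. Its highest siControl RAS library (42.9) lay under its lowest control library (50.6). Whether BACH1 or KEAP1 bears on the levels of the targets was not tested. With the knockdown 4 fell and 1 rose: the MAF genes MAFG (-0.54), MAFF (-0.52) and MAFK, and BACH1 (-0.36), fell, and SQSTM1, the autophagy receptor that binds KEAP1, rose by 0.25. The BACH1 call for the knockdown was lost with scaling by library totals and without siControl RAS replicate 2 or 3, or without knockdown replicate 1 or 3 (adjusted p up to 0.117). SQSTM1 had 538 ± 11.1 CPM in siControl RAS, 639 ± 40.6 in knockdown, 512 ± 24.7 in wild-type and 453 ± 34.9 in R298P cells, and fell with either add-back against knockdown (log2 -0.32 and -0.50). The wild-type fall was lost without knockdown replicate 1, or without wild-type add-back replicate 1 or 2 (adjusted p up to 0.0981).

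Among 19 tested genes of glutathione use, 4 rose and 5 fell with RAS, where 45.9% of all tested genes were called. With the knockdown 3 rose and 3 fell, where 15.5% of all tested genes were called. CHAC1, which degrades glutathione, rose from 84.2 ± 12.02 to 246 ± 5.41 CPM with RAS (log2 1.55) and fell to 149 ± 15.02 CPM with the knockdown (-0.72). In R298P add-back cells CHAC1 stood at 212 ± 7.002 CPM, higher than in knockdown (log2 0.51), and in wild-type add-back cells at 159 ± 18.1 CPM (log2 0.09, not called). The difference between the add-backs was not called for CHAC1 (wild type minus R298P, log2 -0.42, adjusted p = 0.179). SLC3A2, the heavy chain that SLC7A11 needs at the membrane, fell with RAS (-0.88) and again with the knockdown (-0.53). GSTO1, an omega-class glutathione transferase, fell with RAS (-1.11), GGT5 rose (2.01) and the microsomal transferase MGST2 fell with the knockdown (-0.76). The GGT5 call was lost with limma-voom and without control replicate 1, 2 or 3, or without siControl RAS replicate 1 or 3 (adjusted p up to 0.0895). The MGST2 call was lost without siControl RAS replicate 1, or without knockdown replicate 1 (adjusted p up to 0.0555).

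Of 17 tested thioredoxin and peroxiredoxin genes, 4 rose and 6 fell with RAS, and 5 rose and 1 fell with the knockdown. PRDX4, the peroxiredoxin of the endoplasmic reticulum, rose with RAS (1.19) and fell with the knockdown (-0.71). TXNRD3 and the methionine sulfoxide reductase MSRA fell with RAS (-1.86 and -1.14). With the knockdown TXNRD3 (1.21) and MSRB3 (0.45) rose, but the TXNRD3 call was lost with limma-voom or the 6 libraries alone and without siControl RAS replicate 1, 2 or 3, or without knockdown replicate 1 or 3 (adjusted p up to 0.176). TXNRD3 was at only 2.84 ± 0.205 CPM in siControl RAS and 6.64 ± 2.61 CPM in knockdown libraries.

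Of 8 genes of NADPH supply, 1 rose and 4 fell with RAS, with the pentose phosphate enzymes TKT at -1.004 and TALDO1 at -0.67; ME1, malic enzyme, fell with the knockdown (-0.45). The ME1 call was lost with scaling by library totals and without siControl RAS replicate 1 or 3, or without knockdown replicate 1 or 3 (adjusted p up to 0.165). The superoxide and peroxide enzymes CAT and SOD3 and the copper chaperone CCS had log2 changes of -0.12, -0.29 and 0.61 with RAS, not called by edgeR, DESeq2 or limma-voom; CCS alone had an unadjusted p under 0.05, and 1 of the 3 was called without siControl RAS replicate 2. The extracellular SOD3 rose with the knockdown from 6.27 ± 0.913 to 13.9 ± 4.34 CPM (log2 1.14), a call lost without siControl RAS replicate 1 or 2, or without knockdown replicate 1 or 3 (adjusted p up to 0.108).

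Of 10 heme and iron genes, 5 rose and 1 fell with RAS, and 1 rose and 2 fell with the knockdown. FTH1, the heavy chain of ferritin, rose from 2869 ± 79.7 to 5394 ± 67.4 CPM with RAS (log2 0.91) and fell to 2767 ± 98.9 CPM with the knockdown (-0.96). FTH1 has many processed copies in the genome, so its count is less certain. TFRC, the transferrin receptor, rose (1.01) and fell (-0.75) alike, the iron exporter SLC40A1 rose with RAS (1.96), and HMOX2, the constitutive heme oxygenase, rose with the knockdown (0.46). The HMOX2 call was lost with DESeq2 or limma-voom and without siControl RAS replicate 2 or 3, or without knockdown replicate 1 (adjusted p up to 0.161). FTH1 was higher by 0.19 with wild-type METTL14 than in knockdown, a call lost with upper-quartile factors, scaling by library totals, no filter, a stricter filter or the 6 libraries alone and without knockdown replicate 1, 2 or 3, or without wild-type add-back replicate 1, 2 or 3 (adjusted p up to 0.295).

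Of 16 tested detoxification genes, 6 rose and 4 fell with RAS, and 3 fell with the knockdown. AKR1B1, aldose reductase, rose from 226 ± 7.18 to 4140.1 ± 162 CPM (log2 4.20) and AKR1C1 from 7.63 ± 1.99 to 113 ± 16.9 CPM (3.89). AKR1C1 has close paralogs, so its share of their reads is uncertain. CES1 had 0 counts in control and, against a floor of 3 counts over that group, was at least 19.6-fold higher in siControl RAS. With the knockdown AKR1C1 (-0.89), AKR1B1 (-0.53) and the carbonyl reductase CBR1 (-0.35) fell; the CBR1 call was lost with upper-quartile factors, scaling by library totals, no filter, limma-voom or the 6 libraries alone and without siControl RAS replicate 2 or 3, or without knockdown replicate 1 or 3 (adjusted p up to 0.185). Of 4 tested genes of the NADPH oxidases, which make superoxide, NOX4 (0.87) and CYBA (0.87) rose with RAS and RAC1 (-0.32) fell, and with the knockdown NOX4 fell (-0.97) and RAC1 rose (0.20). The RAC1 call for the knockdown was lost without siControl RAS replicate 2 or 3, or without knockdown replicate 1 (adjusted p up to 0.127).

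The genes whose levels followed a member most closely over the 15 libraries were found by Pearson's r of log2 CPM. The points share the same libraries and depth, and for 9 members the control libraries lie apart from all others. SOD2 was followed by PDGFRA (r = 0.996) and NEAT1 (0.996), NFE2L2 by LAMC1 (0.969) and MRPS6 (0.969), and GCLC by TTBK2 (0.966) and LUM (0.961). SLC7A11 was followed by SLC3A2 (0.964) and EPB41L3 (0.954), TXNRD1 by SFPQ (0.964) and FASN (0.947), and SRXN1 by LMO7 (0.976) and SMC4 (0.974). NQO1 was followed by SSRP1 (0.979) and H2AZ1 (0.978), GCLM by KIF18A (0.943) and ID1 (0.942), and HMOX1 by PSRC1 (0.907) and IL21R (0.907). IL21R was near the floor, with means of 3.41 CPM in control, 0.803 in siControl RAS, 0.637 in knockdown and 0 in either add-back. For SOD1, which did not part control from RAS, the highest values were lower, at 0.848 for BAALC and 0.815 for MRPS18C.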

How the data were processed

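Gene expression was measured in 15 libraries of 3′ end tags (Lexogen QuantSeq, per the labels' protocols), which give about 1 tag per transcript. The authors deposited 1 table of whole-number counts per Ensembl gene, not normalised. Per the submitters' processing notes, the tools were Bowtie2 and RSEM 1.2.12 and the build hg19, with no role stated. The annotation, filters and strand setting: not given in the sources used here. Symbols came from a table of gene names and, for IDs it lacks (SOD2 among the members), from GENCODE 29. No library was a copy of another: within groups, chi-square over its degrees of freedom ran from 3.52 to 8.47.

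A coefficient per group was fitted to the 15 libraries together in edgeR 4.0.16 (R 4.3.3) after its own expression filter and TMM scaling, and contrasts were tested by its robust quasi-likelihood F test (two-sided; 10 residual degrees of freedom). The p-values were adjusted by Benjamini-Hochberg over all 13516 genes tested. Levels are TMM-normalised CPM; SE is the fitted log2 change divided by the square root of F.

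Alternatives were DESeq2 1.42.0, limma-voom (limma 3.58.1), other scalings and filters, a replicate block, fits of the 6 libraries compared, and each library left out in turn. All members were named whether called or not, with METTL14, the 2 genes most like each member, and up to 3 called genes of each of 8 pathway lists with the largest change. Members and lists were chosen with earlier results of these data known. TXNIP and PECAM1, of 151 listed genes, matched no ID. Some genes of the pathway lists are not reported here by name.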

Additional observations from a re-analysis of the deposited data

Results flagged for a closer look

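METTL14, measured as a check of the labels, had 545 ± 32.03 CPM in wild-type and 945 ± 80.4 CPM in R298P add-back cells (SD, n = 3), and the effect of the 2 add-backs against knockdown differed by the direct test (wild type minus R298P, log2 -0.79, edgeR's adjusted p = 0.0322). All 3 wild-type libraries lay below all 3 R298P libraries. The difference was -0.83 to -0.72 when 1 of the 6 libraries was left out, and its adjusted p was then 0.0726 to 0.343; with the replicate block the adjusted p was 0.0875. Tags of the endogenous gene and of the lentivirus were not separated.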

How the results depend on the processing

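Over all alternatives, 1120 log2 changes of members were recomputed for 80 results. Of these 1096 stayed on the same side of the threshold, 16 lost a call and 8 gained one, and no called change turned its direction; 49 changes that were never called crossed 0. Fits of the 6 libraries compared called 0 members for wild-type add-back against knockdown (1 in the fit of all libraries) and 1 for wild-type add-back against siControl RAS (2 in that fit), with fewer samples behind the spread. Leaving out 1 library gave 0 to 1 members for wild-type add-back against knockdown, 1 to 3 for wild-type add-back and 2 to 4 for R298P add-back against siControl RAS, 3 to 5 for knockdown against siControl RAS, 9 to 9 for siControl RAS and 9 to 10 for knockdown against control. TXNRD1 for R298P add-back against siControl RAS was called with upper-quartile factors (log2 0.29, adjusted p = 0.0465) and library totals (0.33, 0.0170), and TXNRD1 for wild-type add-back against knockdown was not called in the fit of 6 libraries (adjusted p = 0.0904). Over all genes, wild-type against R298P add-back called 3 by edgeR, 13 by DESeq2, 14 without the filter, and 5 each by limma-voom and in the fit of 6 libraries, and 1 without wild-type replicate 1 or 2 or R298P replicate 2 or 3. Against knockdown, wild-type add-back went from 84 genes to 55 without wild-type replicate 2, and R298P add-back from 148 to 93 and 90 without R298P replicates 2 and 3. The list of NADPH supply for siControl RAS against control had 5 called genes, 2 by DESeq2 and 2 to 3 when 1 of the libraries compared was left out. With the replicate number as a block the members called were 9, 4, 1, 0, 0, 2, 3 and 9 in the 8 comparisons, as without it. Deviations from the group mean had r of -0.0541 to 0.0681 over 30 pairs of libraries with the same number in different groups. For pairs with different numbers r was -0.0745 to 0.106. The mean r with libraries of the other groups was highest for their own number in 8 of 15 libraries. The numbers were not taken as a pairing. HMOX1 and SLC7A11 had 29 to 199 and 34 to 369 counts a library, which limits their precision.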
